A study of Homo sapiens with 2 samples.

Results

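Transcripts of NF-kB signalling and its feedback genes were measured in AGS, a cell line established from an adenocarcinoma of the human stomach, with 1 expression array from cells exposed to 100 nM LBH589 for 24 h and 1 from control cells. LBH589 is panobinostat, an inhibitor of histone deacetylases. The control cells are labelled as having no treatment, though their sample title reads control treated, and neither a vehicle nor a culture time was found. The 37 members were taken by gene symbol, all 37 had a probe set, and they belong to 20235 genes named on the arrays, of which 18769 were detected. TAB1 and TAB2 are listed in the table under the older symbols MAP3K7IP1 and MAP3K7IP2. With 1 array per group there is no replicate check, no difference has an error or a test, and a gene is called when its intensities differ by 2-fold or more. The number of arrays sets the precision.

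NF-kB is a family of dimeric transcription factors held in the cytoplasm by inhibitor proteins of the IkB family. Receptors for TNF, interleukin-1 and bacterial products act through adaptors and ubiquitin chains on the kinases TAK1 and IKK. IKK marks IkB for degradation and so releases the dimers to the nucleus. Several of the genes they then switch on, among them NFKBIA and TNFAIP3, encode proteins that shut the pathway off again. The noncanonical branch runs from receptors such as LTBR through MAP3K14 and CHUK to the processing of the NFKB2 protein.

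Across 33297 probe sets the median intensity was 4.77 with LBH589 and 4.84 in control cells. A background of 4.36, percentile 95 of 450 probe sets of olfactory receptors, was reached on both arrays by 34 members. IRAK2 and TRAF5 reached it on 1 array, and TRAF1 on neither. All 5 epithelial markers were above background on both arrays, among them KRT8 (2292 with LBH589 and 1967 in control cells), KRT18 (632 and 634), EPCAM (337 and 577) and CDH1 (9.72 and 11.4), and KRT19 (1171 and 566) was 2.07-fold higher. All 4 endothelial markers were below background on both arrays. The leukocyte and fibroblast markers above it on both arrays included CD68 (7.90 and 9.23) and COL1A1 (38.8 and 26.6), and the leukocyte antigen PTPRC had 2.95 and 2.76. In bulk RNA, a change in the share of cells that use a gene and a change in RNA per cell cannot be told apart.

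After LBH589, the NF-kB precursor gene NFKB1 and the receptor-proximal genes MYD88 and IRAK1 were lower, while the deubiquitinase genes CYLD and TNFAIP3 and the precursor gene NFKB2 were higher. These were 3 members higher and 3 lower of 37, or 8.11% each way. The share of all detected genes called higher was 4.9% and that called lower 4.86%, and over the 13447 genes that reached background on an array the shares were 6.83% and 6.78%. The counts of members called therefore lie near the shares among genes with signal. The median log2 ratio, LBH589 over control, was -0.12 over the members and 0.00 over all detected genes. A log2 ratio below 0 was found in 26 members and above 0 in 11. Of all detected genes, 9292 were below 0 and 9382 above, and of those that reached background on an array 6589 and 6827. These counts include ratios close to 0. With 50 added to every intensity none of the 6 calls held, and with intensities floored at 16 CYLD (log2 ratio 0.98) and TNFAIP3 (0.43) fell short of 2-fold. The first outcome was fixed in advance, because with 50 added only a gene brighter than 50 can differ by 2-fold. The brightest value among the 6 was 45.0, that of IRAK1 in control cells. With LBH589, CYLD (31.6) and TNFAIP3 (21.5) were also too dim to lie 2-fold above a floor of 16. Both outcomes follow from low intensities and say nothing more about these calls.

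**Figure D1:**
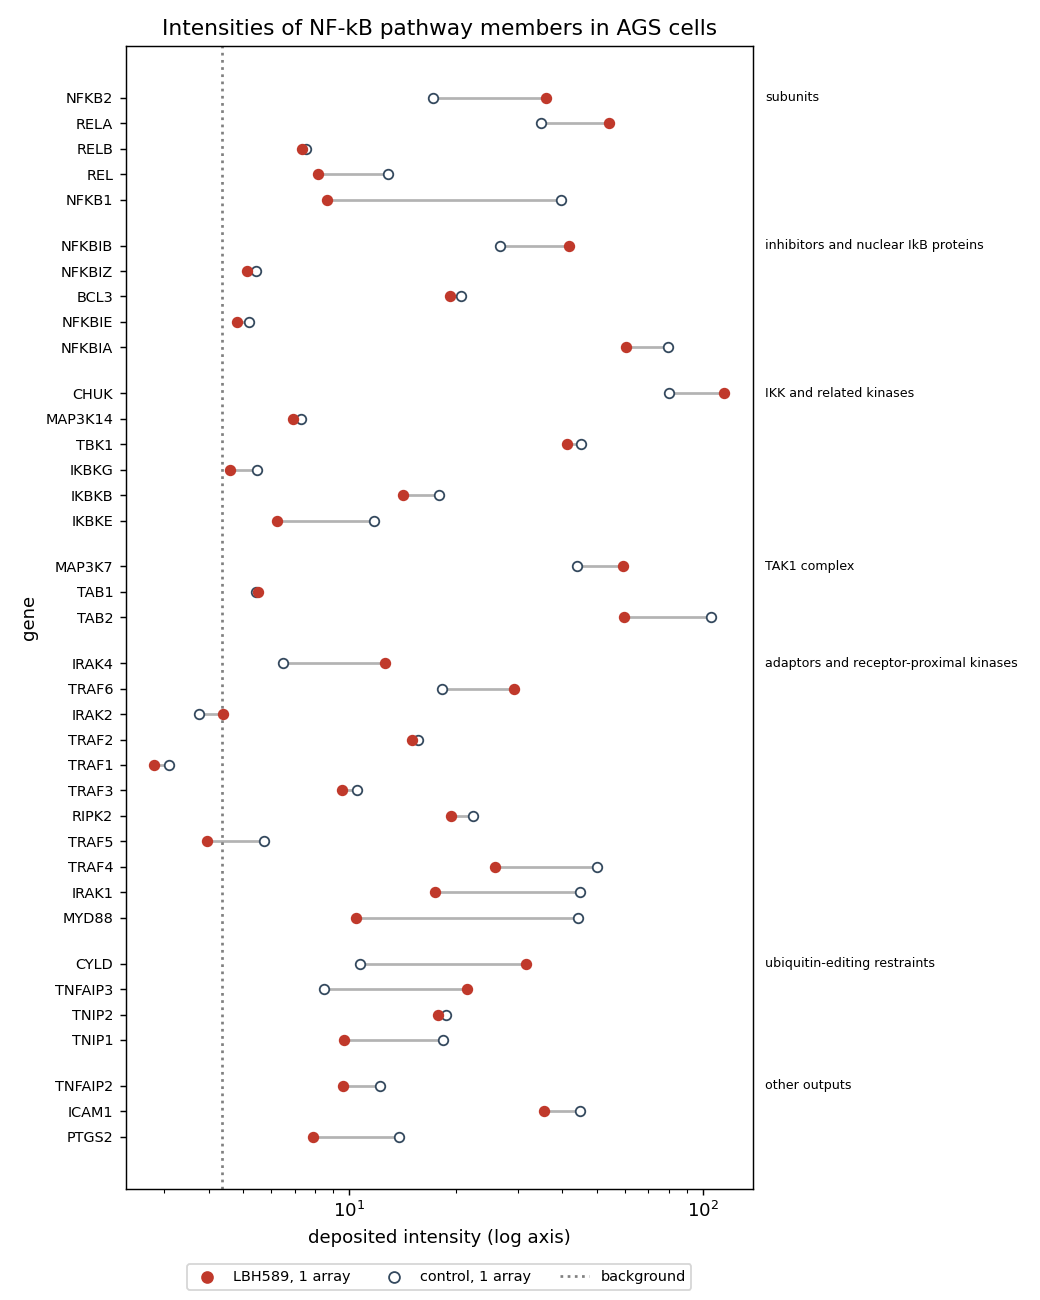
Deposited intensity (log axis) of each of the 37 members with LBH589 (filled red) and in control cells (open), 1 array each, grouped by role, with the background of 4.36 dotted. The gaps past 2-fold are those of NFKB1, MYD88 and IRAK1, lower on the LBH589 array, and of CYLD, TNFAIP3 and NFKB2, higher on it.

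The DNA-binding subunits went different ways. NFKB1, which encodes the precursor of the p50 subunit, had an intensity of 8.66 with LBH589 and 39.7 in control cells, a 4.59-fold lower value. Only 0.565% of detected genes had a lower log2 ratio than NFKB1. NFKB2, which encodes the precursor of p52, the subunit of the noncanonical branch, had 36.0 with LBH589 and 17.3 in control cells, 2.08-fold higher and just past the size used. RELA, the main transactivating subunit, had 54.3 with LBH589 and 34.9 in control cells, 1.56-fold higher and within 2-fold. REL, a transactivating subunit best known from lymphocytes, had 8.18 with LBH589 and 12.9 in control cells. RELB, the partner of p52, stayed nearly level at 7.32 with LBH589 and 7.56 in control cells. The log2 ratio of NFKB2 exceeded that of NFKB1 by 3.26, and that of RELA exceeded that of NFKB1 by 2.84.

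None of the 5 genes for IkB proteins reached 2-fold. NFKBIA, the inhibitor that NF-kB itself induces, had 60.6 with LBH589 and 79.5 in control cells, a log2 ratio of -0.39. NFKBIB, a second cytoplasmic inhibitor, had 41.8 with LBH589 and 26.6 in control cells, a log2 ratio of 0.65. These inhibitor genes thus lay on opposite sides of 0. BCL3, a nuclear IkB protein that binds p50 and p52, had 19.2 with LBH589 and 20.8 in control cells. NFKBIZ, a nuclear IkB protein, had 5.13 with LBH589 and 5.45 in control cells, and the inhibitor NFKBIE had 4.80 and 5.20, so both were close to background.

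The genes that restrain the pathway by editing ubiquitin held the highest ratios among the members. CYLD, a deubiquitinase that removes activating ubiquitin chains and is known as a tumour suppressor of skin appendages, had 31.6 with LBH589 and 10.7 in control cells, 2.95-fold higher. TNFAIP3, a ubiquitin-editing enzyme induced by NF-kB, had 21.5 with LBH589 and 8.50 in control cells, 2.53-fold higher. Of detected genes, 98.5% had a lower log2 ratio than CYLD and 97.6% had a lower one than TNFAIP3. The adaptor TNIP1, which brings TNFAIP3 to its substrates, went the other way at 9.63 with LBH589 and 18.4 in control cells, 1.91-fold lower and short of 2-fold. Its relative TNIP2 had 17.8 with LBH589 and 18.8 in control cells. TNFAIP3 and NFKBIA, both textbook feedback genes, differed by 1.73 in log2 ratio.

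**Figure D2:**
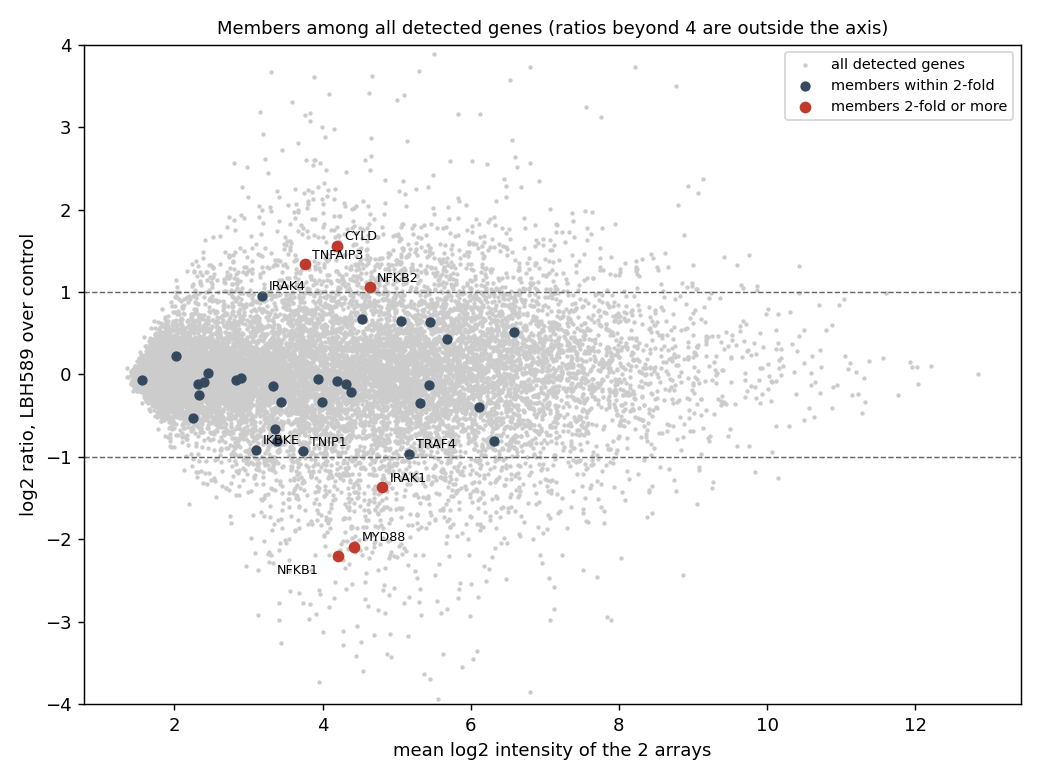
Log2 ratio of LBH589 over control against the mean log2 intensity of the 2 arrays for all 18769 detected genes (grey) and the 37 members (dark, or red at 2-fold or more). Dashed lines mark 2-fold; CYLD, TNFAIP3 and NFKB2 lie above the upper line, and NFKB1, MYD88 and IRAK1 below the lower one.

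NF-kB dimers bind a short DNA element, the kappa B site, and several of these genes are known to carry it. The 250 bases before each RefSeq transcription start (GRCh38.p14) were searched on both strands for the kappa B decamer consensus, counting overlapping matches as 1 site. Of the 33 members with such a window, 10 held a match before at least 1 start, or 30.3%, where 7.86% of 13645 detected genes with a window did. By window, 24.0% of the 50 member windows and 5.21% of all 35116 windows held it. A gene with several starts has more chances, and of genes with exactly 1 window 18.2% of 22 members and 5.72% of 9967 detected genes held a match. The genes that matched were CYLD, TNFAIP3, NFKB2, NFKBIB, NFKBIZ, TRAF3, NFKBIA, REL, TNIP1 and NFKB1, so 3 of the 10 were 2-fold higher and 1 was 2-fold lower. Among all 1072 detected genes with a match, 5.13% were higher and 6.25% lower. Of the 23 members with a window and no match, 0 were higher and 2 were lower. The median log2 ratio was -0.12 with a match and -0.11 without. MYD88 and IRAK1 had no match in these windows. A match describes the letters and not binding in these cells.

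The upstream stretches of 4 members past 2-fold are given 5′ to 3′ on the strand of the gene, ending just before the start unless shorter, with the decamer matches in capitals; they show matches before genes that were higher and before a gene that was lower. For NFKB2, which has another start close upstream, only 30 bases around the first of a pair of matches are shown.
CYLD (chr16:50741836-50742085, plus strand): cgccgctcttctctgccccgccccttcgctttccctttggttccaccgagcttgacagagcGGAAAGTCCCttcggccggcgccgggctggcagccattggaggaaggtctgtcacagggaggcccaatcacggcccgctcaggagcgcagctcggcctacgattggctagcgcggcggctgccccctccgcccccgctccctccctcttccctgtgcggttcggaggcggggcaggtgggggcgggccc
TNFAIP3 (chr6:137867009-137867258, plus strand): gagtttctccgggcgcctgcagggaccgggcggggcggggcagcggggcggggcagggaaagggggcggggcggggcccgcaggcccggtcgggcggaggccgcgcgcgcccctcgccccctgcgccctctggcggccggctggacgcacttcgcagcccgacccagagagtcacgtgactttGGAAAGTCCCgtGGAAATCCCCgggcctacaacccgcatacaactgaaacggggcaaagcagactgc
NFKB2 (chr10:102394461-102394490, plus strand): gaaacgtcatGGGAATTCCCCcctccgggg
NFKB1 (chr4:102501109-102501358, plus strand): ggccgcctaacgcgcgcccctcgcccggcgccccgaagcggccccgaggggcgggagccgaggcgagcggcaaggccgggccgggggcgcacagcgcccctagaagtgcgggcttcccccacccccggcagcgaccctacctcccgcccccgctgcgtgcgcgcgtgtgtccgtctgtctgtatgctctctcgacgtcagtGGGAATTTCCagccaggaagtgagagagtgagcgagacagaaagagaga
The match of NFKB1 began at base -49 from the start, those of TNFAIP3 at -67 and -55, and that of CYLD at -189.

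Shorter stretches of 60 bases show the match in members whose ratio stayed within 2-fold, for comparison with those above.
NFKBIA (chr14:35404796-35404855, minus strand): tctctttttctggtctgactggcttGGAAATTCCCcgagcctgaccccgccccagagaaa
TRAF3 (chr14:102777389-102777448, plus strand): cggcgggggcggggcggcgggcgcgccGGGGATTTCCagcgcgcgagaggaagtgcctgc
REL (chr2:60881502-60881561, plus strand): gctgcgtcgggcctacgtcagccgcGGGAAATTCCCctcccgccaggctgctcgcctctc
TNIP1 (chr5:151081042-151081101, minus strand): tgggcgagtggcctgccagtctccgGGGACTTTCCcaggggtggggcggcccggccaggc
The match of NFKB1 and that before the first start of NFKBIZ had the same letters, GGGAATTTCC. NFKBIZ had a log2 ratio of -0.09 where NFKB1 had -2.20. With 5.45 in control cells and a background of 4.36, NFKBIZ could not have shown a decrease as large as that of NFKB1. TNFAIP3, CYLD and TNIP1 each carried GGGACTTTCC, in TNFAIP3 and CYLD on the opposite strand (GGAAAGTCCC as printed), and their log2 ratios were 1.34, 1.56 and -0.93. The same letters thus stood before genes with ratios of either sign. CYLD, TNIP1 and NFKB1 also have a start without a match. With 1 probe set per member, the arrays do not show which start was used.

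**Figure D3:**
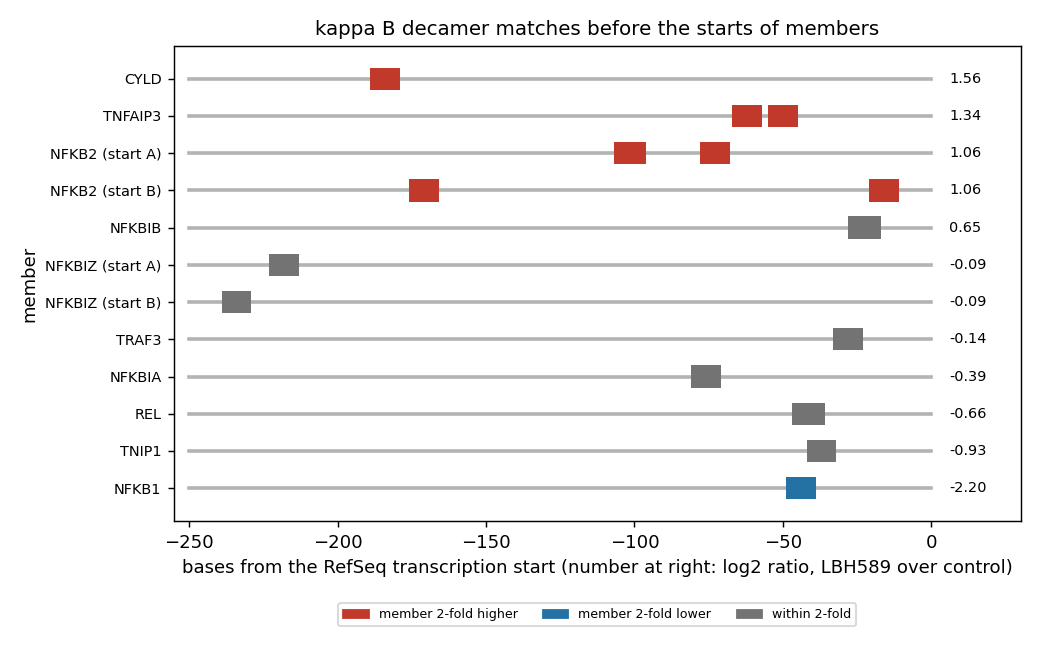
Position of kappa B decamer matches (boxes) in the 250 bases before RefSeq starts of the 10 members that hold one, in bases from the start, ordered by log2 ratio (printed at right). Members 2-fold higher are red, the member 2-fold lower is blue and the others are grey; NFKB2 and NFKBIZ have matches before 2 starts, A and B.

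The IKK genes stayed within 2-fold. CHUK, the IKK alpha kinase, had 115 with LBH589 and 80.3 in control cells, and IKBKB, the IKK beta kinase that phosphorylates IkB, had 14.2 with LBH589 and 18.0 in control cells. Their log2 ratios were 0.51 and -0.34. IKBKG, the regulatory subunit NEMO, had 4.60 with LBH589 and 5.49 in control cells, close to background, and a near-identical pseudogene copy exists, which its probes may also measure. The IKK-related kinase IKBKE had 6.22 with LBH589 and 11.7 in control cells, 1.88-fold lower, while its relative TBK1 had 41.2 and 45.2. MAP3K14, the kinase that starts the noncanonical branch, had 6.95 with LBH589 and 7.29 in control cells.

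Of the TAK1 complex, which links ubiquitin chains to IKK, the kinase gene MAP3K7 had 59.5 with LBH589 and 44.1 in control cells. TAB2, the subunit that binds the ubiquitin chains, had 59.8 with LBH589 and 105 in control cells, 1.76-fold lower. TAB1, an activating subunit, had 5.52 and 5.44, near background. No gene of this complex reached 2-fold.

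Receptor-proximal genes of the Toll-like and interleukin-1 receptor route held the other large decreases. MYD88, the adaptor that these receptors share, had 10.4 with LBH589 and 44.4 in control cells, 4.25-fold lower. IRAK1, a kinase recruited to it, had 17.4 with LBH589 and 45.0 in control cells, 2.58-fold lower. IRAK4, the kinase that acts ahead of IRAK1, had 12.6 with LBH589 and 6.50 in control cells, 1.94-fold higher and just short of the size used. IRAK1 and IRAK4 were therefore on opposite sides of 0 and differed by 2.32 in log2 ratio. IRAK2 had 4.39 with LBH589 and 3.76 in control cells. RIPK2, the kinase downstream of NOD receptors, had 19.4 with LBH589 and 22.4 in control cells.

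None of the 6 TRAF genes reached 2-fold. TRAF4, a TRAF of epithelial cells, came nearest at 25.8 with LBH589 and 50.2 in control cells, 1.95-fold lower. TRAF6, the ubiquitin ligase downstream of MYD88, had 29.2 with LBH589 and 18.3 in control cells, 1.59-fold higher. TRAF2, a ligase of the TNF receptor complex, had 15.0 and 15.7, and TRAF3, which restrains MAP3K14, had 9.53 and 10.5. TRAF5 had 3.95 with LBH589, below background, and 5.72 in control cells, and TRAF1 had 2.81 and 3.09. Of all members, NFKB2 was the one just past 2-fold, and IRAK4, TRAF4, TNIP1 and IKBKE were those just short of it.

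The 3 other output genes had lower intensities with LBH589, all within 2-fold. PTGS2, the inducible cyclooxygenase, had 7.89 with LBH589 and 13.8 in control cells, 1.75-fold lower. ICAM1, an adhesion molecule for leukocytes, had 35.4 with LBH589 and 45.0 in control cells. TNFAIP2, a TNF-induced gene, had 9.62 with LBH589 and 12.2 in control cells.

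Around the members, a list of 51 receptors, adaptors and ubiquitin enzymes gave 48 detected genes, with 4 called higher, 3 called lower and a median log2 ratio of 0.11. The shares called among these detected list genes were 8.33% and 6.25%, beside 4.9% and 4.86% of all detected genes. Of the list genes, 10 were below background on both arrays. The 38 that reached background on an array held the same 4 higher and 3 lower. Among all genes that reached background on an array the shares were 6.83% and 6.78%. TLR4, the receptor for bacterial lipopolysaccharide, had 9.97 with LBH589 and 72.4 in control cells, 7.26-fold lower. LTBR, the lymphotoxin beta receptor of the noncanonical branch, had 8.10 with LBH589 and 49.0 in control cells, 6.05-fold lower. TNFRSF1A, the main TNF receptor, had 24.3 with LBH589 and 59.2 in control cells, 2.44-fold lower. Other receptors went either way within 2-fold. CD40 had 17.6 with LBH589 and 9.60 in control cells, and TNFRSF1B had 9.96 and 5.44, both higher. TNFRSF12A was lower, with 70.7 with LBH589 and 130 in control cells.

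Among the 4 called higher, RIPK1, the kinase and scaffold of the TNF receptor complex, had 275 with LBH589 and 53.8 in control cells, 5.11-fold higher. BIRC3, a ubiquitin ligase of that complex and an NF-kB target, had 36.3 with LBH589 and 6.01 in control cells. IL1RAP, the accessory chain of the interleukin-1 receptor, had 41.2 with LBH589 and 13.0 in control cells, 3.16-fold higher. NKRF, a repressor of NF-kB promoters, had 57.8 with LBH589 and 19.9 in control cells, 2.90-fold higher. The genes of the linear ubiquitin ligase stayed within 2-fold and went either way. RNF31 had 43.2 with LBH589 and 27.4 in control cells, SHARPIN had 44.2 and 40.6, and RBCK1 had 45.8 and 50.2. The adaptors TRADD (25.4 with LBH589 and 20.3 in control cells) and FADD (47.5 and 50.6) were within 2-fold as well.

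Of 47 genes that textbooks list as transcribed through NF-kB, 42 were detected, with 5 called higher, 6 called lower and a median log2 ratio of -0.18. These are shares of 11.9% and 14.3%, beside 4.9% and 4.86% of all detected genes. Of the 42, 9 were below background on both arrays. The 33 that reached background on an array held the same 5 higher and 6 lower. Among all genes that reached background on an array the shares were 6.83% and 6.78%. With intensities floored at background, 4 target genes were higher and 6 lower, because CCL20 fell short of 2-fold. The chemokine CXCL8 (listed as IL8) had 41.2 with LBH589 and 4.87 in control cells, 8.45-fold higher. GADD45B, a stress-response gene, had 57.0 with LBH589 and 23.3 in control cells, and SOD2, the mitochondrial superoxide dismutase, had 52.0 and 22.9. IER3, an immediate-early gene, had 92.1 with LBH589 and 44.6 in control cells by its brightest probe set. The chemokine CCL20 had 8.55 with LBH589 and, below background, 3.21 in control cells, which makes it at least 1.96-fold higher.

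The target genes called lower included BCL2L1, an inhibitor of apoptosis, with 119 after LBH589 and 416 in control cells. CXCL10, a chemokine also induced by interferon, had 2.41 with LBH589, below background, and 8.77 in control cells, and was at least 2.01-fold lower. CFLAR, an inhibitor of caspase activation at death receptors, had 4.57 with LBH589, just above background, and 11.7 in control cells. CD44, an adhesion receptor, had 13.3 with LBH589 and 32.2 in control cells. The growth factor gene CSF1 had 4.52 with LBH589 and 10.6 in control cells, and MYC, a growth regulator, had 37.9 and 99.0. The cytokines TNF (5.38 with LBH589 and 4.94 in control cells), IL1B (3.23 and 3.20) and IL6 (2.82 and 2.77) were near or below background on both arrays.

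**Figure D4:**
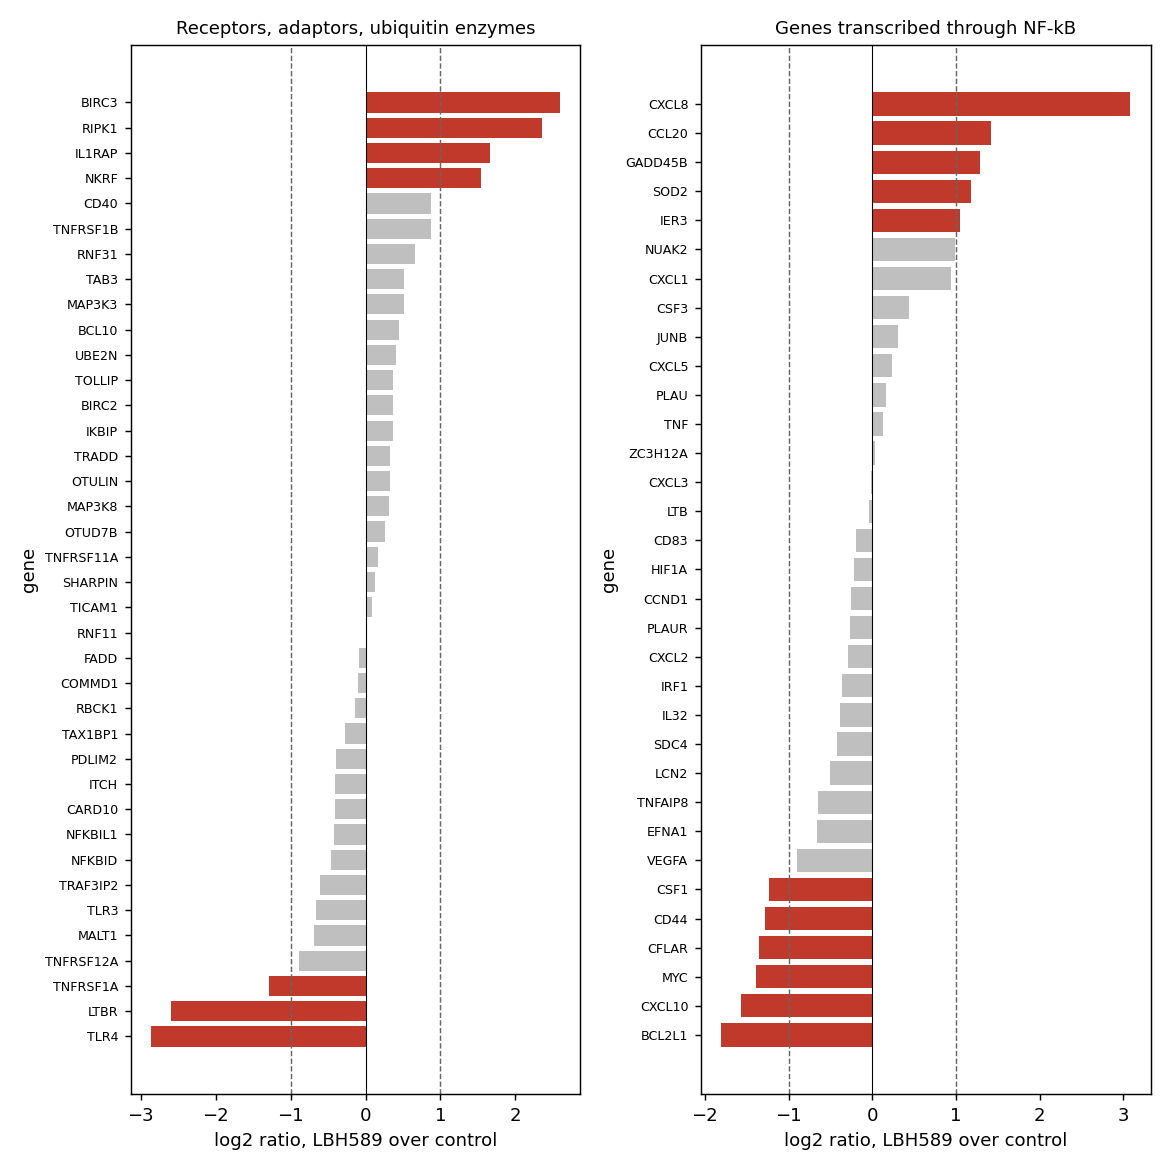
Log2 ratio of LBH589 over control (bars, from 0) for the 38 genes of the receptor, adaptor and ubiquitin enzyme list and the 33 genes of the target list that reached background on an array. Bars at 2-fold or more (dashed lines) are red; the longest are TLR4 and LTBR, lower, and CXCL8, BIRC3 and RIPK1, higher.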

How the data were processed

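Total RNA was labelled with biotin by a one-cycle cRNA kit and hybridised to 2 arrays, per the labels' protocols. The deposited table gives, for each of 33297 probe sets, an intensity per array on a linear scale, made by the authors with gene-level RMA per the file headers. MAS5 is the method named in the submitters' processing notes, so the sources differ. The sources used here do not give software versions or a genome build. The deposited ratio equals LBH589 over control intensity within a relative difference of 9.9e-09, and the value table of the series holds the same intensities, which ties each column to its sample.

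Probe sets with 1 gene symbol (21864) were kept, and symbols were updated with RefSeq (GRCh38.p14): an accession matched 18258, a current symbol 1111 and an older one 1037, and 1458 were left as listed. Each member had 1 probe set; for other genes the brightest was used. Intensities below 2.95, percentile 20, were raised to it, so ratios of dim genes are understated, and a gene was detected where its brighter array reached it. A fold against an array below background is given as at least the brighter intensity over background. No test was possible with 1 array per group. The step that calls genes was tested on simulated data. That simulation changed only genes brighter than every called member, and by more than 2-fold. It therefore did not test calls near 2-fold or at the intensities of those members. The members, lists and alternatives were chosen with earlier results of these data known. All members are named, and of both lists the genes past 2-fold whose brighter array reached background; any other list gene named was picked with its value known. UBE2V1 of the first list was not analysed here. Promoter sequences are from RefSeq. Python 3.11.15, numpy 2.4.6, pandas 2.3.3 and matplotlib 3.10.9 were used.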

Additional observations from a re-analysis of the deposited data

How the results depend on the processing

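No called gene changed sign under the alternatives, 9 in all, that gave it a value. These varied the scaling, floor, probe set rule or source of the values. CXCL10, CCL20, CSF1 and CFLAR had no value with a floor of 16. Most alternatives could not change a sign. A floor or an added 50 cannot reverse the order of the 2 arrays, the other sources hold the same values, and the centring median was 0.0. Each member has 1 probe set, so for members only quantile normalization could have changed a sign. With 50 added to each intensity, the members called higher and lower numbered 0 each: the log2 ratio was -0.61 for NFKB1, -0.64 for MYD88, -0.49 for IRAK1, 0.43 for CYLD, 0.29 for TNFAIP3 and 0.35 for NFKB2. None of these members reached 50 on an array, so none could stay past 2-fold under that setting. That setting left 1 gene higher (RIPK1) and 1 lower (TLR4) of the receptor, adaptor and ubiquitin enzyme list, and 0 higher and 1 lower (BCL2L1) of the target list, whose median became -0.0077. With a floor of 16, 1 member (NFKB2) was 2-fold higher, CYLD being at 0.98 and TNFAIP3 at 0.43, and 3 target genes were lower, with 21 members and 18 target genes left. CYLD and TNFAIP3 were too dim to reach 2-fold over that floor. CCL20 was at 0.97 with a floor at background. At 1.5-fold, 7 members were higher and 9 lower, and 7 genes of the receptor list were higher and 7 lower. At 3-fold, 0 members were higher and 2 (NFKB1 and MYD88) were lower. In the receptor list 3 genes were higher and 2 lower, and in the target list 1 was higher and 1 lower. Shares of all detected genes called at 1.5-fold and at 3-fold were not computed, so these counts cannot be set against the whole array. No paired analysis was possible because each group has 1 array.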

Other observations

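The kappa B decamer was also looked for before genes that are no members. Of 36 target genes with a RefSeq window, 17 held a match, or 47.2%, and of 43 genes of the receptor, adaptor and ubiquitin enzyme list 5 did, or 11.6%. Of the 15 detected target genes with a match, 1 was called higher (CCL20, at least 1.96-fold with its control intensity taken at background) and 2 were called lower (CXCL10 and CFLAR), with a median log2 ratio of -0.23. Of the 17 detected target genes with a window and no match, 3 were higher and 2 were lower, with a median of 0.12. Of the 5 genes of the receptor, adaptor and ubiquitin enzyme list with a match, 1 was called higher (BIRC3) and 0 lower, with a median of 0.09. The neighbouring chemokine genes CXCL1 and CXCL2 had the same matched letters. CXCL1 had 17.0 with LBH589 and 8.84 in control cells, and CXCL2 had 5.56 and 6.80. CXCL3 (5.74 with LBH589 and 5.79 in control cells) and CXCL5 (4.48 and 3.79) carried those letters too. Over all detected genes, 55 of 1072 with a match were 2-fold higher (5.13%) and 67 were 2-fold lower (6.25%). Of 12573 genes with a window and no match, 5.44% were higher and 5.14% were lower.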
